A study of Mus musculus with 24 samples.

Results

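Heat shock proteins and chaperones were examined as a set of 10 genes, Hspa1a, Hspa1b, Hspa8, Hsph1, Dnajb1, Hsp90aa1, Hspb1, Hspa5, Hspd1 and Hspe1, among the 54838 genes of the count table. The 10 were taken by symbol as a list of major chaperones, a rule that uses no measured value, although the list was drawn up with earlier results of these data known. The cells were SIM-A9, a spontaneously immortalised line of mouse microglia, and poly-A RNA was sequenced in 24 libraries after exposure to probes used in neuroscience. All cells stood in 270 uL of serum-free medium for 2 h, received 30 uL of a 10-fold concentrated sample and were lysed 2 h later. Each of the 8 groups had 3 libraries. The control was untreated, that is without probe or LPS, and what its added 30 uL held is not given here. LPS, a bacterial cell wall component and the study's inflammatory positive control, made up the second group. (GT)6 SWCNT is a single-walled carbon nanotube carrying a short GT-repeat DNA, and COOH SWCNT is the carboxylated nanotube. Fura-2 is a fluorescent calcium indicator, and DiBASC2 and Di-2-ANEPEQ are fluorescent dyes of membrane voltage. AAV stands for adeno-associated virus, whose serotype and cargo are not given in the sources used here. The sample descriptions spell the first voltage dye DiSBAC2, its treatment labels carry a different last digit in each library, and the second dye is also spelled Di2ANEQPEQ and Di-2-ANEQEQ. Final concentrations are not given in the sources used here, so groups were compared at unknown relative doses. All groups were the same cell line at the same single time. The labels do not say that replicates were separate cultures, so p-values measure the spread between these libraries, which may be technical.

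Chaperones hold unfolded proteins and help them fold. In the cytosol, heat or misfolded protein frees heat shock factor Hsf1 from chaperones, and Hsf1 then binds heat shock elements in DNA and switches on the inducible genes Hspa1a, Hspa1b, Hspb1, Dnajb1 and Hsph1, while Hspa8 is the constitutive relative of Hspa1a. In the endoplasmic reticulum, unfolded protein is sensed by Ern1, Eif2ak3 and Atf6, and the unfolded protein response raises Hspa5, the main chaperone of that compartment. In mitochondria, Hspd1 and Hspe1 form the chaperonin cage and its lid, and their genes lie head to head.

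Promoter sequences are shown to describe the stress motifs near these genes, and a link between motifs and expression was not tested. The RefSeq table of promoters (build GRCm38.p6) held 8 of the 10 genes in 11 windows, and the 250 bases before each start were searched on both strands. The motifs were the heat shock element (GAANNTTC or TTCNNGAA), a longer form that contains it and adds 1 more block after 2 bases of any kind (so that GAA and TTC alternate over 3 blocks), the CCAAT box, the motif CCACG, the TATA box in the form TATAAA, and the endoplasmic reticulum stress pattern, a CCAAT box followed after 9 bases of any kind by the motif CCACG, which thus contains both. Shown are Hspa5 and Hspe1, whose group means spanned most, and Hspa1a, the classical inducible gene, each 5′ to 3′ on the gene's strand. Hspa8 and Hsp90aa1 had no window in the promoter table. Capitals mark both ends of the stress pattern in Hspa5 (chr2:34771840-34772089, plus strand), the heat shock elements in Hspe1 (chr1:55087898-55088147, plus strand) and the heat shock element in Hspa1a (chr17:34972157-34972406, minus strand).
Hspa5: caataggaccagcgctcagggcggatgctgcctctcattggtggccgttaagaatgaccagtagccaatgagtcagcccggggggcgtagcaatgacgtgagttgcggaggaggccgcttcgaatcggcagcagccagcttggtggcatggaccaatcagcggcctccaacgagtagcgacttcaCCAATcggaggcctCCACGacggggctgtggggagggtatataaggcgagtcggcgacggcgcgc
Hspe1: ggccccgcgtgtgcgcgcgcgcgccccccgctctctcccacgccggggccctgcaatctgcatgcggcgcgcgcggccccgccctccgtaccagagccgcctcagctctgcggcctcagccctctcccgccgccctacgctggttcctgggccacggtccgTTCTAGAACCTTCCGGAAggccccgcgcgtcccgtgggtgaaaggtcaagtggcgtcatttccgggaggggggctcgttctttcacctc
Hspa1a: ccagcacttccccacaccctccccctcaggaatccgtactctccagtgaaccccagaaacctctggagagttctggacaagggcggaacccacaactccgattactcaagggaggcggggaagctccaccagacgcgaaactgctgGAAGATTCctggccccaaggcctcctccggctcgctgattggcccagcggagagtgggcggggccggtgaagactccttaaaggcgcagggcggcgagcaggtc

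A heat shock element was found in 6 of the 8 genes, Hspa1a, Hspa1b, Hsph1, Hspb1, Hspd1 and Hspe1, and 12.8% of all 32851 promoters in the table held one. Hspe1 had 3 overlapping elements at -89 to -72, counted from the annotated start, and Hspd1 held the same 3 on the opposite strand, since its second window (chr1:55087933-55088182, minus strand) covers nearly the same DNA. The form with 3 blocks occurred in 0.466% of all promoters. Hspa5 held no heat shock element but 4 CCAAT boxes, and 1 of these, at -65, began the stress pattern that ends at -47. That pattern was found in 0.113% of all promoters, CCAAT in 33.8%, CCACG in 28.3% and TATAAA in 12.4%. None of the 8 genes held TATAAA in these windows, and neither Dnajb1 window held a heat shock element. These matches describe the letters only. Hspd1 and Hspe1, which share the 3 elements, differed in their calls below, and Hspa1a, Hspa1b and Hspb1 had almost no counts.

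Total counts ran from 17364272 to 29259221 per library, and a count of 0 allows at most 0.102 to 0.176 CPM, that is counts relative to a TMM-adjusted library size, for counting error only. Of 12 microglia and macrophage markers, Csf1r (461 to 553 CPM over the libraries), Cd68 (723 to 988), Tyrobp (357 to 527) and Ptprc (223 to 262) were abundant, whereas the microglial markers Tmem119 (2.75 to 5.32), P2ry12 (1.54 to 3.26) and Aif1 (2.67 to 5.27) were low but detected. The 14 markers of other brain cells and fibroblasts had a summed level of 4.91 to 7.68 CPM, most of it Mbp, with Mog and Cldn5 at 0 in all libraries. Libraries were numbered group by group, so library order and treatment cannot be told apart.

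At rest and under all treatments, Hspa8, Hsp90aa1, Hspa5 and Hspd1 were among the most abundant mRNAs of these cells, while Hspa1a, Hspa1b and Hspb1 had almost no counts. Per kilobase of exon, Hspa8 stood highest at 688.9 ± 31.7 CPM per kb (mean ± SD over 24 libraries), beside Hsp90aa1 at 665.0 ± 39.4. Hspd1 followed at 465.4 ± 14.1, Hspa5 at 301.8 ± 33.1 and Hspe1 at 152.7 ± 14.0. The co-chaperones were lower, with Hsph1 at 30.2 ± 1.11 CPM per kb and Dnajb1 at 14.5 ± 0.855. By CPM, Hspa8 ranked 13 and Hsp90aa1 18 among all genes. Except for Hspa8 and Hsp90aa1, whose ranges met, the ranges of neighbouring genes in this order did not overlap.

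**Figure D1:**
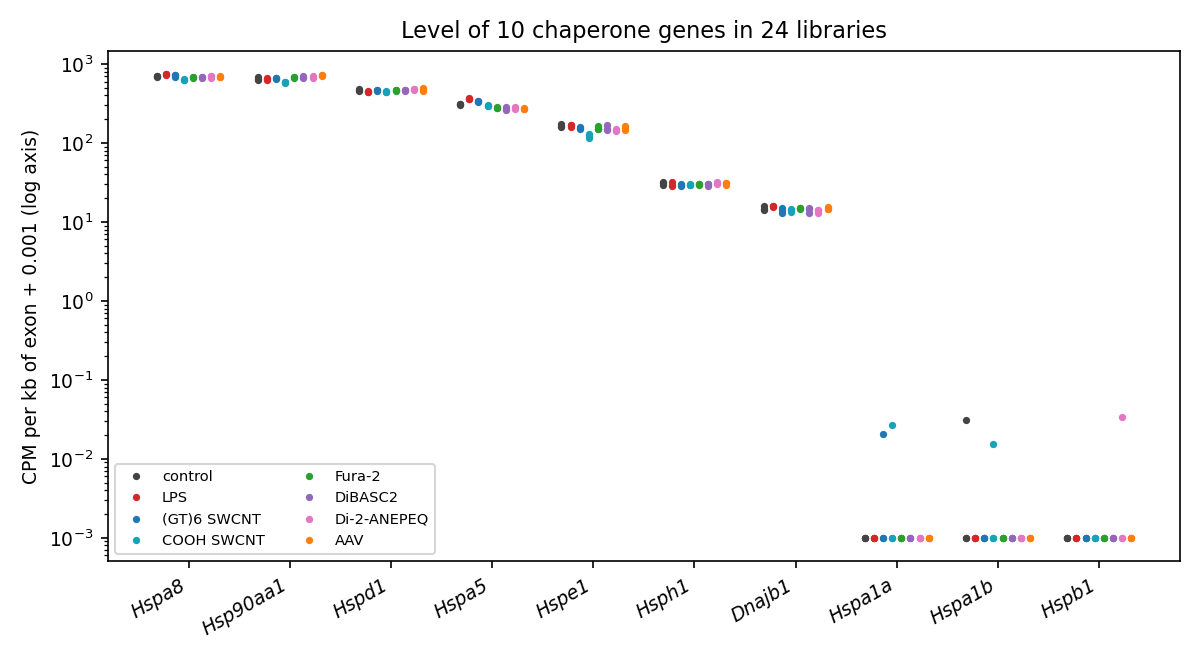
Level of each of the 10 genes in every library, as CPM per kb of exon plus 0.001 on a log axis, with groups in colour. The expressed genes sit in narrow bands from 14.5 (Dnajb1) to 688.9 (Hspa8) on average, and Hspa1a, Hspa1b and Hspb1 lie at 0 in nearly all libraries.

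Hspa1a (chr17:34969190-34972156, ENSMUSG00000091971.3) had 3 counts in all, in 2 libraries. Hspa1b (chr17:34956436-34959238, ENSMUSG00000090877.3), the adjacent near-copy that encodes practically the same Hsp70 protein, also had 3 counts in 2 libraries, and Hspb1 (chr5:135887919-135889563, ENSMUSG00000004951.10), a small heat shock protein, had 1 count. None passed the filter on low counts, so the tests cover 7 of the 10 genes. The Hspa1 copies share 58.81% of the 50-base windows of Hspa1a, so reads may have been lost between them, and how reads with several matches were counted is not given in the sources used here. Together the pair had only 6 counts, at most 2 in a library, and did not pass the filter. This sum cannot recover reads that were discarded for matching both copies. Hspb1 shares 51.65% of its windows with other genes, and its pseudogene Hsp25-ps1 had 2 counts, so few reads were assigned there either. Among other stress chaperones Hspa1l and Hspb8 had 1 count each and Cryab had 0. Hsf1 itself was expressed at 74.2 to 84.6 CPM over the libraries and was called in none of the 7 comparisons with it.

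Over the 7 treatments and 7 tested genes, 9 of 49 differences from control passed a Benjamini-Hochberg adjusted p of 0.05 in edgeR's quasi-likelihood test, 3 higher and 6 lower. All folds lay between 0.750 and 1.187. The calls fell on Hspa5, Hspe1, Hspa8 and Hsp90aa1, while Hsph1, Dnajb1 and Hspd1 were called in no treatment against control. That is 4 of 7 genes called in at least 1 treatment, where 46.6% of all 13116 genes tested were. LPS gave 1 call among the 7 genes, where 28.3% of all genes were called, and (GT)6 SWCNT gave 1, where 20.4% were called. COOH SWCNT gave 3, all lower, where 20.0% of all genes were called and 10.6% were called lower. DiBASC2 gave 1 (background 5.47%), Di-2-ANEPEQ 1 (3.08%) and AAV 2 (5.00%). Fura-2 gave 0 (0.252%), with 1 gene at an unadjusted p under 0.05 and 1 called by DESeq2. For LPS and (GT)6 SWCNT the share of the 7 genes called, 14.3%, did not exceed that of all genes, and for COOH SWCNT it was 42.9%. The 7 comparisons share their control libraries, so their values stand side by side here and are not counted as repeated evidence. In bulk RNA, fewer cells of a type and less RNA per cell cannot be told apart.

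**Figure D2:**
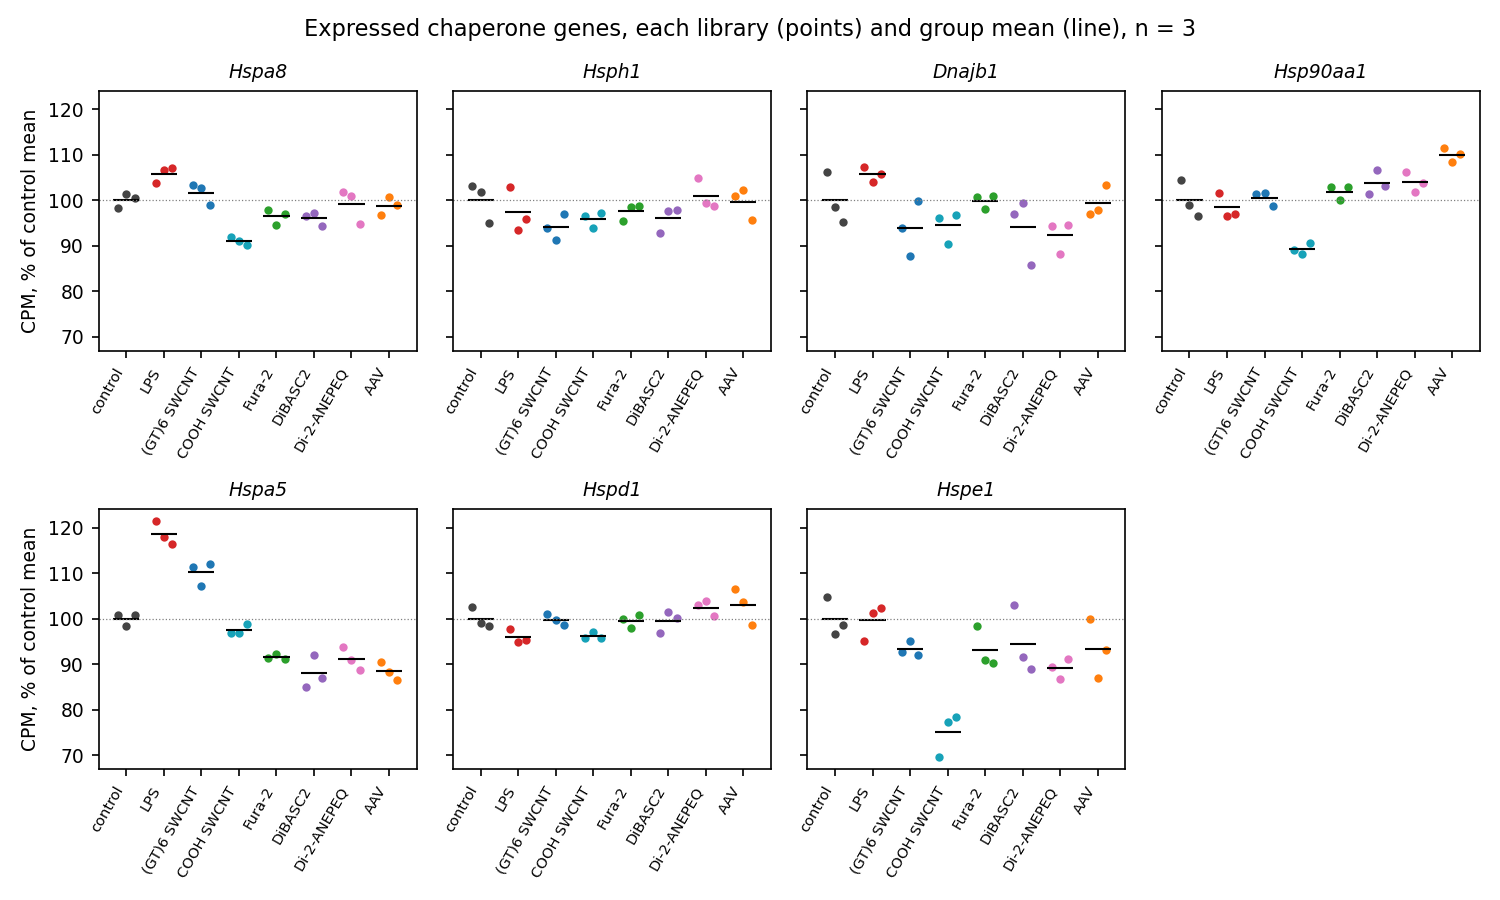
CPM of the 7 expressed genes in every library as a percentage of the control mean (points) with group means (lines, n = 3), on an axis that does not start at 0. Hspa5 is highest under LPS, Hspe1 lowest under COOH SWCNT, and Hsph1 and Hspd1 stay close to the control in all groups.

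Hspa5 (chr2:34771970-34777547, ENSMUSG00000026864.13), the chaperone that binds nascent proteins in the endoplasmic reticulum, varied most between groups. Control libraries stood at 1310, 1278 and 1312 CPM, LPS libraries at 1580, 1534 and 1513, and (GT)6 SWCNT libraries at 1446, 1394 and 1457. All LPS libraries lay above all (GT)6 SWCNT libraries, which in turn lay above all controls. The log2 fold change was 0.25 ± 0.04 (SE) for LPS (adjusted p = 5.39e-07) and 0.14 ± 0.04 for (GT)6 SWCNT (adjusted p = 0.0031). Under COOH SWCNT Hspa5 stood at 1259, 1259 and 1284 CPM, overlapping the control, with a log2 difference of -0.04 (95% interval -0.11 to 0.04, adjusted p = 0.53).

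In the dye and virus groups Hspa5 lay on the other side of the control. DiBASC2 libraries had 1104, 1197 and 1130 CPM, Di-2-ANEPEQ libraries 1219, 1181 and 1153, AAV libraries 1176, 1148 and 1125, and Fura-2 libraries 1186, 1200 and 1185. Every one of these libraries was below the lowest control, and the 4 groups overlapped their neighbours in order of level. Hspa5 fell with DiBASC2 (log2 fold change -0.18 ± 0.04, adjusted p = 0.000801) and AAV (-0.18 ± 0.04, adjusted p = 0.00285). For Di-2-ANEPEQ the value was -0.13 ± 0.04 (adjusted p = 0.0269), a call lost without control replicate 1 (0.113), control replicate 3 (0.11), Di-2-ANEPEQ replicate 2 (0.111) or Di-2-ANEPEQ replicate 3 (0.155). For Fura-2 it was -0.13 ± 0.04 with adjusted p = 0.109 in edgeR, and DESeq2 gave 0.0178. Group means of Hspa5 on the log2 scale spanned 0.43 and those of Hspe1 0.42. No gene reached the 0.5 set for naming genes of similar pattern, so none is named.

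The other 25 genes of the endoplasmic reticulum list, chaperones and unfolded protein response genes, all passed the filter. Under LPS 3 rose and 4 fell, with a median log2 fold change of -0.02 beside -0.01 over all genes, and the 28% of the list called was close to the 28.3% of all genes. Herpud1, which takes part in degradation of misfolded proteins, rose from 29.05, 30.97 and 29.78 CPM in control to 85.2, 86.8 and 87.8 with LPS (log2 fold change 1.53 ± 0.06, adjusted p = 1.15e-22). Xbp1, the transcription factor activated by Ern1, fell from 130.0, 115.4 and 119.1 CPM to 85.7, 77.2 and 85.4 (-0.55 ± 0.05, adjusted p = 7.62e-11). For both genes the 2 groups did not overlap. The sensor Ern1 rose by 0.42 and the sensor Eif2ak3 fell by 0.38 on the log2 scale, though the exons of Eif2ak3 overlap those of another gene.

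With (GT)6 SWCNT 5 of the 25 rose and 2 fell (median 0.03, all genes -0.02), 28% of the list beside 20.4% of all genes. The count was 4 to 7 with a library left out. Herpud1 rose by 0.82 ± 0.06 to 57.4, 54.1 and 46.97 CPM, and Atf4, a transcription factor of the integrated stress response, rose from a mean of 283 to 379 CPM (0.42 ± 0.04, adjusted p = 1.34e-09). Xbp1 fell by 0.30 to a mean of 98.2 CPM. With COOH SWCNT 3 rose and 2 fell (median -0.04, all genes -0.0016), 20% of the list beside 20.0% of all genes and 3 to 5 genes with a library left out. Herpud1 again stood above control, at 38.8, 41.8 and 40.5 CPM (0.43 ± 0.06, adjusted p = 1.8e-06), with Xbp1 lower (-0.28 ± 0.05). Herpud1 and Xbp1 thus moved in COOH SWCNT libraries in which Hspa5 was not called. With DiBASC2 2 of the list were lower, 8% beside 5.47% of all genes, Atf4 among them (-0.26 ± 0.04, adjusted p = 0.000225). The count was 1 to 2 with a library left out, and 9 with length and GC trends removed. AAV gave 1 lower (4% of the list, all genes 5.00%, and 0 to 1 with a library left out). Fura-2 (all genes 0.252%) and Di-2-ANEPEQ (all genes 3.08%) gave 0 each. At an unadjusted p under 0.05, Fura-2 and Di-2-ANEPEQ had 2 each, and DESeq2 called 0 in both.

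**Figure D3:**
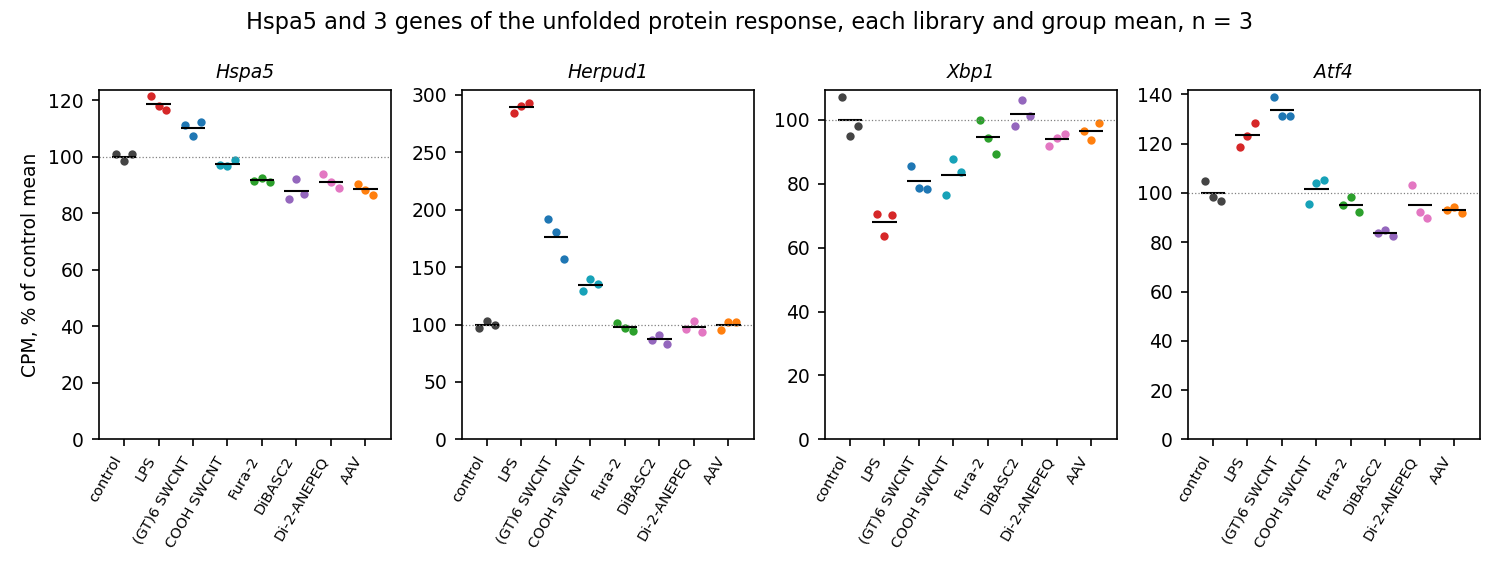
CPM of Hspa5, Herpud1, Xbp1 and Atf4 in each library as a percentage of the control mean (points), with group means (lines, n = 3) and separate axes. Herpud1 is highest and Xbp1 lowest under LPS, where Hspa5 is highest too, and Atf4 is highest under (GT)6 SWCNT.

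Hspe1 (chr1:55088132-55091307, ENSMUSG00000073676.4), the mitochondrial co-chaperonin, gave the largest difference of all 49. Control libraries stood at 255.6, 235.8 and 240.3 CPM and COOH SWCNT libraries at 169.4, 188.4 and 191.2. All 3 COOH SWCNT libraries lay below every other library of the series. Hspe1 fell by 0.41 ± 0.05 on the log2 scale, a fold of 0.750 (adjusted p = 1.25e-07), and the call was kept in every alternative and without each library in turn, the smallest size being -0.35 with trends of gene length and GC content removed. The (GT)6 SWCNT libraries, at 226.3, 232.0 and 224.3 CPM, were above COOH SWCNT by 0.32 ± 0.05 (adjusted p = 2.19e-05). Against control the (GT)6 SWCNT value was -0.10 (adjusted p = 0.186), although all its libraries lay below all controls. It was called lower with length and GC trends removed (-0.12, adjusted p = 0.0316). By group mean Hspe1 was highest in the control.

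Di-2-ANEPEQ libraries held Hspe1 at 218.2, 211.7 and 222.1 CPM, below all controls. The log2 difference of -0.17 ± 0.05 missed the threshold (adjusted p = 0.065). It passed without a low-count filter (0.00744), with the 2 groups alone (0.00246) and with the DESeq2 test (0.0433). No other alternative gave a call, nor did any fit with a library left out. The remaining treatments gave -0.0044 (LPS), -0.10 (Fura-2), -0.08 (DiBASC2) and -0.10 (AAV), none of them called, and all 4 overlapped the control.

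Hspd1 (chr1:55077835-55088243, ENSMUSG00000025980.14), the chaperonin itself, was called in no comparison. COOH SWCNT libraries stood at 1182, 1198 and 1182 CPM against 1268, 1222 and 1215 in control, without overlap, but the log2 difference was only -0.06 (95% interval -0.13 to 0.02, adjusted p = 0.267). LPS libraries, at 1207, 1170 and 1178 CPM, also lay below all controls, with a log2 difference of -0.06 (adjusted p = 0.215) that was called lower with upper-quartile factors (-0.10, adjusted p = 0.0181) and with length and GC trends removed (-0.09, 0.0238). Over all 7 treatments the intervals of Hspd1 lay between -0.13 and 0.12. The gene spans of Hspd1 and Hspe1 share 112 bases on opposite strands, and strand use in counting is not given in the sources used here, so reads from that stretch cannot be assigned to 1 gene. Hspd1 also shares 44.78% of its 50-base windows with 9 other genes, chiefly the pseudogene Hspd1-ps3 at 3.10 to 4.29 CPM. The level of Hspd1 is uncertain to the extent that reads were split or discarded.

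The ratio of Hspe1 to Hspd1 within each library, which rests on the same counts and does not resolve shared reads, was 0.198 ± 0.00429 (SD, n = 3) in control, with a range of 0.193 to 0.202, and 0.154 ± 0.00966 with COOH SWCNT, with a range of 0.143 to 0.162. The groups did not overlap and differed by -0.36 on the log2 scale. The two-sided exact permutation p was 0.1, the smallest that 3 against 3 libraries allow (adjusted p = 0.175 over the 7 treatments). The ratio was also below all controls with (GT)6 SWCNT (-0.10), Di-2-ANEPEQ (-0.20) and AAV (-0.14), each at the same exact p of 0.1.

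**Figure D4:**
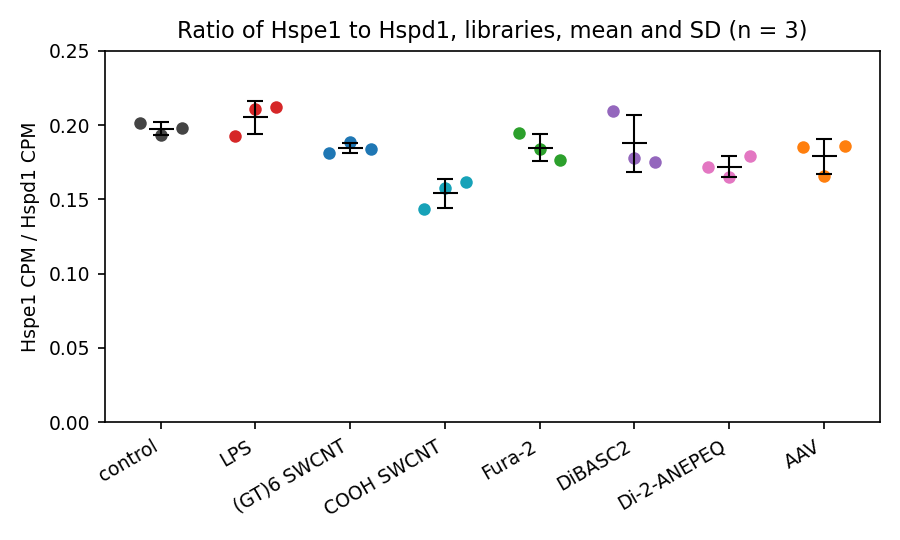
Ratio of Hspe1 CPM to Hspd1 CPM in each library (points) with mean and SD (bars, n = 3 per group). COOH SWCNT lies lowest, at 0.143 to 0.162, against 0.193 to 0.202 in the control.

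The 13 other mitochondrial chaperones and proteases were all tested. With COOH SWCNT 4 fell and 0 rose, the median being -0.09 beside -0.0016 for all genes. This was 30.8% of the list, where 20.0% of all genes were called and 10.6% were called lower, and 1 to 3 genes were called with a library left out. The call of Hscb, an iron-sulphur cluster co-chaperone, was lost without any 1 of the 6 libraries (adjusted p = 0.0526 to 0.112) and with length and GC trends removed (0.152). Among the 4, Grpel1, the nucleotide exchange factor of the mitochondrial Hsp70, stood at a mean of 87.0 CPM against 106.0 in control (-0.28 ± 0.05, adjusted p = 2.04e-05), though its exons overlap those of Tada2b. LPS gave 2 lower (15.4% of the list, 28.3% of all genes), and (GT)6 SWCNT (background 20.4%), DiBASC2 (5.47%) and AAV (5.00%) gave 1 each (7.69% of the list), with 0 higher. Of these 5 calls 4 were lost without some single libraries. Grpel2 lost its LPS call without control replicate 1 or LPS replicate 1 or 2, and its DiBASC2 call without control replicate 1 or DiBASC2 replicate 1 or 3. Grpel1 kept its AAV call only without AAV replicate 1 or control replicate 2, and Clpx its (GT)6 SWCNT call only without (GT)6 SWCNT replicate 3, where DESeq2 on all libraries called 0 genes. Fura-2 and Di-2-ANEPEQ gave 0 calls by edgeR (all genes 0.252% and 3.08%) and by DESeq2, with 1 and 4 genes at an unadjusted p under 0.05. Mitochondrially encoded genes took 1.62% to 1.69% of counts with COOH SWCNT and 1.54% to 1.72% in control, so the groups overlapped in that share.

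Hspa8 (chr9:40800984-40810087, ENSMUSG00000015656.17), the constitutive cytosolic chaperone that also uncoats clathrin vesicles, was called against control with COOH SWCNT and with no other treatment. Control libraries had 2953, 3044 and 3017 CPM and COOH SWCNT libraries 2758, 2734 and 2706. The groups did not overlap, and the log2 fold change was -0.14 ± 0.03 (adjusted p = 0.00357). LPS libraries, at 3118, 3205 and 3218 CPM, were all above the control, but the difference of 0.08 ± 0.03 missed the threshold (adjusted p = 0.0729). It passed with the DESeq2 test (0.00574), DESeq2 size factors (0.0363) and a filter at a mean of 50 counts (0.0452). The replicate block (0.0494) and leaving out LPS replicate 1 (0.0496) also gave a call, and the other settings did not. The remaining 5 treatments differed from control by -0.06 to 0.02.

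Hsp90aa1 (chr12:110690605-110702728, ENSMUSG00000021270.13), a chaperone of kinases and steroid receptors, was lower with COOH SWCNT and higher with AAV. Controls had 2704, 2561 and 2501 CPM, COOH SWCNT libraries 2307, 2281 and 2343, and AAV libraries 2888, 2804 and 2850. Neither treated group overlapped the control. The log2 fold change was -0.16 ± 0.04 with COOH SWCNT (adjusted p = 0.000732) and 0.14 ± 0.04 with AAV (adjusted p = 0.0196). The AAV call was lost without AAV replicate 2 (0.0501), AAV replicate 3 (0.0523), control replicate 2 (0.0593) or control replicate 3 (0.131). Under the other 5 treatments the difference lay between -0.02 and 0.06.

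Hspa8 and Hsp90aa1 share 51.43% and 58.51% of their 50-base windows with other genes, so both are uncertain to the extent that reads were split or discarded. The pseudogenes with the largest overlap stood at 8.23 to 13.0 CPM (Gm15459, for Hspa8) and 5.97 to 8.32 CPM (Gm12346, for Hsp90aa1), low beside the parent genes. The summed level of all 10 genes was 7913 to 7970 CPM with COOH SWCNT and 8326 to 9048 in all other libraries. Most of this sum is Hspa8 and Hsp90aa1, so it largely restates their lower levels. With COOH SWCNT 4 of the 7 tested genes were not called against control. Beside these results, the summed microglia markers were 2647 to 2776 CPM with COOH SWCNT and 2671 to 2747 in control. Of the 12 markers 1 was called higher and 3 lower, 33.3% of the list beside 20.0% of all genes. Tyrobp was among the lower (-0.21 ± 0.06), and any part of these marker changes in the chaperone results was not tested.

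The inducible co-chaperones gave no call against control. Hsph1 (chr5:149614287-149636376, ENSMUSG00000029657.15), a nucleotide exchange factor for Hsp70 proteins, had 231.2, 228.5 and 213.2 CPM in control and 204.5 to 235.2 CPM over all 24 libraries. The 95% intervals of its log2 differences lay between -0.18 and 0.10. With (GT)6 SWCNT the interval was -0.18 to -0.0039 (log2 difference -0.09, adjusted p = 0.122). Without control replicate 3 that difference was called lower (-0.12, adjusted p = 0.049), and in no other setting. Dnajb1 (chr8:83608193-83612653, ENSMUSG00000005483.10), which delivers clients to Hsp70, had 50.7, 47.1 and 45.6 CPM in control, and its intervals lay between -0.23 and 0.20. Its libraries stood at 51.3, 49.8 and 50.6 CPM with LPS and 45.1, 42.2 and 45.2 with Di-2-ANEPEQ, the latter all below the control (-0.11 ± 0.06, adjusted p = 0.298).

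Of 29 other cytosolic chaperones, co-chaperones and heat shock factors, 25 were tested. With COOH SWCNT 3 rose and 6 fell (median -0.07, all genes -0.0016), 36% of the list beside 20.0% of all genes, and 5 to 8 were called with a library left out. Cacybp, a co-chaperone with roles in ubiquitination, fell from 283.8, 271.7 and 281.7 CPM to 181.4, 177.7 and 185.2 (-0.62 ± 0.05, adjusted p = 4.29e-11), and no library overlapped. Dnaja1, a cytosolic co-chaperone of Hspa8 whose exons overlap other genes, was lower (-0.22 ± 0.04). Dnajb4, a co-chaperone of the Dnajb1 kind, was among those higher (0.19 ± 0.07, adjusted p = 0.0418). Its call was kept in 2 of 6 fits with a library left out and in 6 of 8 other settings.

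With (GT)6 SWCNT 3 of the 25 rose and 1 fell (median 0.03), 16% of the list beside 20.4% of all genes. Dnajb4 rose by 0.45 ± 0.07 to 31.7 CPM. Cacybp was the gene that fell (-0.19 ± 0.05, adjusted p = 0.0098). LPS gave 6 higher and 0 lower (median 0.03), 24% of the list beside 28.3% of all genes and 5 to 10 genes with a library left out, with Dnajb4 at 36.8 CPM against 23.3 (0.66 ± 0.07, adjusted p = 1.92e-10) and Dnaja2, another co-chaperone of this family, higher by 0.24 ± 0.04. Cacybp was lower with Di-2-ANEPEQ (-0.37 ± 0.05, adjusted p = 8.02e-05) and with AAV (-0.25 ± 0.05, adjusted p = 0.00525, and 0.0617 without AAV replicate 2). DiBASC2 and Di-2-ANEPEQ each gave 1 gene of this list lower (4% of the list, beside 5.47% and 3.08% of all genes). AAV gave 2 lower (8%, all genes 5.00%, and 0 to 2 with a library left out). Fura-2 gave 0 (all genes 0.252%), with 4 at an unadjusted p under 0.05 and 1 by DESeq2. The 8 subunits of TRiC, the cytosolic chaperonin for actin and tubulin, gave 2 lower with COOH SWCNT. This was 25% of the list beside 20.0% of all genes called and 10.6% called lower. With (GT)6 SWCNT 1 was higher, 12.5% beside 20.4% of all genes. Each other treatment gave 0, where all genes gave 28.3% (LPS), 5.47% (DiBASC2), 3.08% (Di-2-ANEPEQ), 5.00% (AAV) and 0.252% (Fura-2). The COOH SWCNT call of Cct5 (-0.12 ± 0.03) was lost without control replicate 1 (adjusted p = 0.0664). The other, Cct6a (-0.09 ± 0.03, adjusted p = 0.0439), was lost without any 1 of the 6 libraries (0.0597 to 0.16) and in 3 of the 8 other settings. That of Cct2 with (GT)6 SWCNT (0.12 ± 0.04) was lost without control replicate 3 (0.13), (GT)6 SWCNT replicate 1 (0.0929) or (GT)6 SWCNT replicate 2 (0.139). Where edgeR called 0, the TRiC genes at an unadjusted p under 0.05 numbered 0 with LPS, 1 with Fura-2 and 2 each with DiBASC2, Di-2-ANEPEQ and AAV, and DESeq2 called 1 with DiBASC2 and 2 with AAV.

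**Figure D5:**
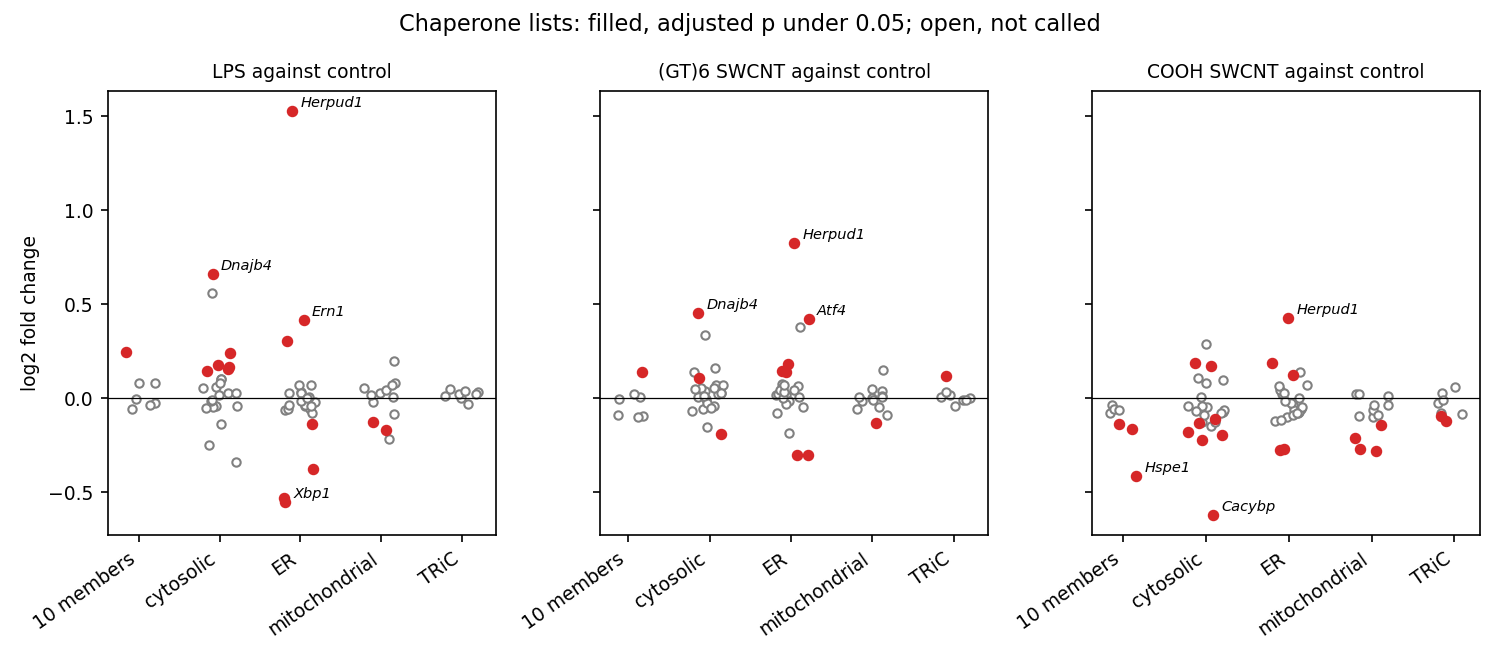
Log2 fold change against control of tested genes among the 10 and the 4 further lists for LPS and both nanotubes, filled where the adjusted p was under 0.05. Herpud1 is the highest called gene in all 3 panels, at 1.53, 0.82 and 0.43, and the called genes among the 10 under COOH SWCNT are all below 0.

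The treatments were also set directly against each other. Between the nanotubes, 4 of the 7 tested genes were called, all higher with (GT)6 SWCNT than with COOH SWCNT, where 21.4% of all genes were called and 11.9% were called higher. These were Hspe1 (0.32, above), Hspa5 (0.18 ± 0.04, adjusted p = 0.00033), Hsp90aa1 (0.17 ± 0.04, adjusted p = 0.000446) and Hspa8 (0.16 ± 0.03, adjusted p = 0.000743). All 4 kept the call under every alternative and without each library in turn. The libraries of the 2 groups did not overlap for any of them, and the median over the 7 genes was 0.16 beside -0.01 over all genes. For Hsph1, Dnajb1 and Hspd1 the log2 differences were -0.03, -0.02 and 0.05. The further lists gave 9 higher and 0 lower of 25 cytosolic genes, 7 and 0 of 25 of the endoplasmic reticulum, 3 and 0 of 13 mitochondrial, and 2 and 0 of 8 TRiC genes.

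Against LPS, COOH SWCNT had 5 of the 7 genes lower, where 37.8% of all genes were called and 19.7% were called lower. The log2 fold change was -0.41 for Hspe1, -0.28 for Hspa5, -0.22 for Hspa8, -0.16 for Dnajb1 and -0.14 for Hsp90aa1. The Dnajb1 call (adjusted p = 0.0213) was lost without COOH SWCNT replicate 2 (0.098), LPS replicate 1 (0.0554) or LPS replicate 3 (0.0503), and with upper-quartile factors (-0.11, 0.129). (GT)6 SWCNT had 2 of the 7 lower than LPS, where 21.6% of all genes were called and 11.9% were called lower. These were Dnajb1 (-0.18 ± 0.06, adjusted p = 0.0203) and Hspa5 (-0.11 ± 0.04, adjusted p = 0.0252). Without (GT)6 SWCNT replicate 2 or LPS replicate 1 neither was called. Without (GT)6 SWCNT replicate 1 the call of Dnajb1 was lost (0.0531), and without LPS replicate 2 that of Hspa5 (0.053).

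The 2 voltage dyes, whose relative dose is unknown, differed in these genes past the threshold only with length and GC trends removed, for Hspa5 (-0.09, adjusted p = 0.046) and Hspd1 (-0.11, 0.0225). Without that step, between DiBASC2 and Di-2-ANEPEQ 0 of the 7 were called by edgeR, where 8.95% of all genes were, with 0 at an unadjusted p under 0.05 and 0 by DESeq2. The largest log2 differences were 0.08 for Hspe1 (95% interval -0.02 to 0.19) and -0.07 for Hsph1 (-0.16 to 0.01). Hspa5, below the control in all libraries of both dyes, differed between them by -0.05 (-0.12 to 0.02).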

How the data were processed

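The authors deposited 1 table of raw counts per gene for 24 libraries, in whole numbers. Reads were aligned with STAR 2.5.4b to GRCm38.p6, per the submitters' processing notes; the counting tool, strand setting and annotation are not given in the sources used here. Symbols and positions are from GENCODE M21 (GRCm38), which matched 54809 of 54838 identifiers. Genes were filtered with filterByExpr (13116 kept), scaled with TMM and fitted in R 4.3.3 with edgeR 4.0.16 (glmQLFit, 1 mean per group, 16 residual degrees of freedom, glmQLFTest, two-sided). The call rule was a Benjamini-Hochberg adjusted p under 0.05 over all tested genes in each of 11 comparisons. Values are CPM on TMM-scaled library sizes, and exon lengths from GENCODE M21 gave CPM per kb. Total counts ranged from 17364272 to 29259221, and the biological coefficient of variation was 4.12%. The fit was tested on simulated data.

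The 10 genes, the 4 further lists and the tests were chosen with earlier results of these data known. Of each further list, genes named are those with the 2 highest and 2 lowest log2 fold changes per comparison among called genes with a mean of at least 5 CPM and no overlap between the groups' libraries. Of the cytosolic list, 1 gene counted with it is not reported here and not plotted. The motif with 3 adjoining blocks and the endoplasmic reticulum stress pattern were added after the data were seen, and promoters are from the RefSeq table. Alternatives were DESeq2 (version 1.42.0) size factors and test, upper-quartile factors, a replicate block, no low-count filter or one at a mean of 50 counts, fitting the 2 groups alone, removal of length and GC trends (splines with 5 degrees of freedom) and leaving out each library.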

Additional observations from a re-analysis of the deposited data

How the results depend on the processing

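No log2 fold change of a tested gene named here reversed in a called direction. With COOH SWCNT against control (3 of the 10 genes called), COOH SWCNT against LPS (5), (GT)6 SWCNT against COOH SWCNT (4) and DiBASC2 against control (1), the number called stayed within 1.5 times under every alternative. LPS (1 called) gave 2 with DESeq2 size factors, upper-quartile factors, a mean of at least 50 counts, length and GC trends removed and the DESeq2 test, and 1 to 2 with a library left out. (GT)6 SWCNT (1) gave 2 with length and GC trends removed, and 1 to 2 with a library left out. Fura-2 (0) gave 1 with the DESeq2 test. Di-2-ANEPEQ (1) gave 2 without a filter, with the 2 groups alone and with the DESeq2 test, and 0 to 1 with a library left out. AAV (2) gave 1 to 2 with a library left out. (GT)6 SWCNT against LPS (2) gave 0 with upper-quartile factors, 1 without a filter, with length and GC trends removed and with the 2 groups alone, and 0 to 2 with a library left out. DiBASC2 against Di-2-ANEPEQ (0) gave 2, Hspa5 and Hspd1, with length and GC trends removed. Among all genes, higher calls made up 48.7% with LPS and 35.4% with upper-quartile factors, and 46.9% with COOH SWCNT and 34.8% with length and GC trends removed. For (GT)6 SWCNT against COOH SWCNT the share was 55.5%, 44.4% with upper-quartile factors and 70.5% with length and GC trends removed. For COOH SWCNT against LPS it was 47.9%, and 62.5% with upper-quartile factors. DiBASC2 against Di-2-ANEPEQ gave 38.8%, 63.4% with upper-quartile factors and 21.5% with length and GC trends removed.

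Replicate numbers were shared across groups, but same-numbered libraries did not deviate together over all tested genes (correlations of -0.104 to 0.0696 over 33 pairs). With 3 libraries per group, these correlations cannot show whether same-numbered libraries shared a culture or batch that acted on some genes. The replicate block gave 2 called genes with LPS, adding Hspa8 (adjusted p = 0.0494), and changed no other count by over 1.5 times. The Hspa1a and Hspa1b sum gave no test, since it did not pass the filter. For Hspa1a, Hspa1b and Hspb1 depth limits any statement to levels under 0.102 to 0.176 CPM of counted reads. Reads discarded for several matches are not covered by that limit.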
